A study of Homo sapiens with 12 samples.

Results

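The Hedgehog receptors PTCH1, SMO, BOC and CDON and the cytoplasmic and nuclear effectors SUFU, GLI2 and GLI3 were followed in Rh30, an established human alveolar rhabdomyosarcoma cell line, with and without knockdown of the PAX3-FKHR fusion. These 7 genes were taken by symbol from the gene names on the arrays, and they have 12 of the 41000 gene probes there: 3 for SUFU, 2 each for PTCH1, GLI2 and CDON, and 1 each for SMO, GLI3 and BOC. Each gene was represented by its brightest probe, and its other probes are given beside it.

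RNA of 3 cultures was compared in pairs on 12 2-colour arrays: untransfected parental Rh30 cells (WT), a control clone (CON) with a non-targeting shRNA in a puromycin vector, and a PAX3-FKHR knockdown clone (KD1) with an shRNA against the fusion in the same vector. All 3 cultures carry the fusion gene, and no further treatment was given. The clones were grown with 1 μg/ml puromycin and WT without it, for 24 h before extraction. The pairs KD1 vs CON, KD1 vs WT and WT vs CON each had 2 biological replicates, and each replicate was hybridised as a dye-swap pair, so that each of the 6 RNA extracts was on 4 arrays and each culture on 8. CON and KD1 are each 1 clone, so the knockdown and other differences between clones cannot be told apart.

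In the Hedgehog pathway, a secreted ligand binds PTCH1, which otherwise keeps the membrane protein SMO inactive. BOC, CDON and GAS1 are ligand-binding partners of PTCH1 at the cell surface. Active SMO releases the GLI transcription factors from their inhibitor SUFU. GLI2 is the main activator at the start of signalling, GLI3 acts mostly as a repressor, and GLI1, PTCH1 and HHIP are classical target genes, of which PTCH1 and HHIP dampen the signal. In rhabdomyosarcoma the pathway is best known from fusion-negative tumours with loss of PTCH1.

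A single extract stood apart in epithelial transcripts. WT replicate 2 stood out in EPCAM and CDH1. On the log2 scale of normalised signal, EPCAM was at 7.36 there and at 1.77 to 1.98 in the other 5 extracts. CDH1 was at 4.18 there and at 1.73 to 2.46 elsewhere. KRT5 stayed near background in all 6, at 1.68 to 2.18. AGR2, FABP1 and GPA33, which were picked after their values were seen, were also highest in WT replicate 2, by 5.66, 4.69 and 4.04 over WT replicate 1. GPA33 was next highest in KD1 replicate 2, at 3.84, and at 2.14 to 2.77 in the remaining extracts. In RNA of whole cultures, a share of cells rich in these transcripts and a low level in every cell cannot be told apart. Their part in the values of KD1 vs WT and WT vs CON was not tested, and the members' values are given by replicate, since replicate 1 does not hold that extract. Muscle markers were high in all extracts, with MYOD1 at 14.46 to 14.66 and DES at 15.64 to 16.87, whereas TFAP2B, a marker of fusion-positive tumours, was not well above background in any of 24 readings. MYOG was called in WT vs CON, at -1.96 and -1.49 (adjusted p from limma 0.0185). The endothelial gene VWF was at 9.35 in KD1 replicate 2 and at 5.66 to 6.89 in the other extracts. Of the other endothelial markers, PECAM1 was at 9.29 to 10.03 in all extracts and CDH5 at 2.76 to 3.87. Of the blood markers, PTPRC stayed at 1.87 to 1.98, whereas CD3E was well above background in 8 of 8 readings of every culture, at 5.32 to 5.85. As a check of the labels, the brightest of 3 PAX3 probes was below 0 on all 8 KD1 arrays, at -0.42 ± 0.04 against CON and -0.39 ± 0.08 against WT (SD, n = 2), and the brightest FOXO1 (FKHR) probe was as well, at -0.42 ± 0.23 and -0.60 ± 0.26. Replicate 1 alone gave -0.45 for PAX3 and -0.79 for FOXO1 against WT. Of the other PAX3 probes, 1 was below 0 on all 8 arrays and 1 on 5 of 8, the latter at 0.16 and -0.33 against CON and at 0.26 and -0.15 against WT, and the second FOXO1 probe was below 0 on 7 of 8. Neither of the brightest probes passed the test, with adjusted p from limma of 0.326 and 0.374 for PAX3 and 0.432 and 0.273 for FOXO1. Whether each of these probes reads the fusion transcript was not determined, and each can read an unfused gene.

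The probes that carry the results are shown first, since each reads only a short stretch of its transcript. The PTCH1 and GLI2 probes and the brighter CDON probe lie in single blocks of 60 bases, and their first 30 bases are printed. The SUFU probe covers 971 bases of the genome and the BOC probe 573, so both cross a splice junction, and the dimmer CDON probe lies 5′ of the brighter one on the minus strand. Positions are those of the files, on build NCBI36, and sequences are 5′ to 3′.
PTCH1, chr9:97245950-97246009, minus strand, brightest probe: taaggactcatggtaggttttagggtaagg
PTCH1, chr9:97247269-97247328, minus strand: gtctcccagaaatgatgttttgagtcccta
GLI2, chr2:121466146-121466205, plus strand, brightest probe: actcagagtgtgactctgactgtgaccttg
GLI2, chr2:121465057-121465116, plus strand: gccaaaacctttcaaaggatatgcagaaag
BOC, chr3:114486375-114486947, plus strand, first 30 bases: ccaaagtcaccagatcacgaggggtcccaa
CDON, chr11:125332868-125332927, minus strand, brightest probe: cagggtgcaagttacattgcaatgttctaa
CDON, chr11:125356219-125356278, minus strand, whole probe: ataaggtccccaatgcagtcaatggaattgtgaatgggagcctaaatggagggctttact
SUFU, chr10:104342443-104343413, plus strand, brightest probe, whole: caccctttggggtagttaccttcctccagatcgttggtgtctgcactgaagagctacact

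Differences are given as log2 ratios of the normalised signals, with the culture named first over the second. BOC, CDON and GLI2 were lower in KD1 than in both CON and WT, by 1.60-fold to 2.02-fold, and PTCH1 was 2.16-fold lower than in WT. SMO in KD1 lay between CON and WT, SUFU differed little and GLI3 was near background. None of these differences passed the test at an adjusted p of 0.05. In KD1 vs CON, 0 of 6 tested members were called by limma, where 1.79% of all 21937 probes tested were called, and the smallest adjusted p of a member was 0.120. In KD1 vs WT, 0 of 6 were called beside 1.05% of 24884 probes, with a smallest adjusted p of 0.137, and in WT vs CON 0 of 6 beside 1.37% of 26595 probes, with a smallest adjusted p of 0.111. At an unadjusted p under 0.05, the members counted were 4, 4 and 1 of 6, beside 17.2%, 17.2% and 16.5% of all probes tested. The filter kept 9, 11 and 11 of the 12 member probes in the 3 comparisons, and GLI3 was removed from all of them.

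**Figure D1:**
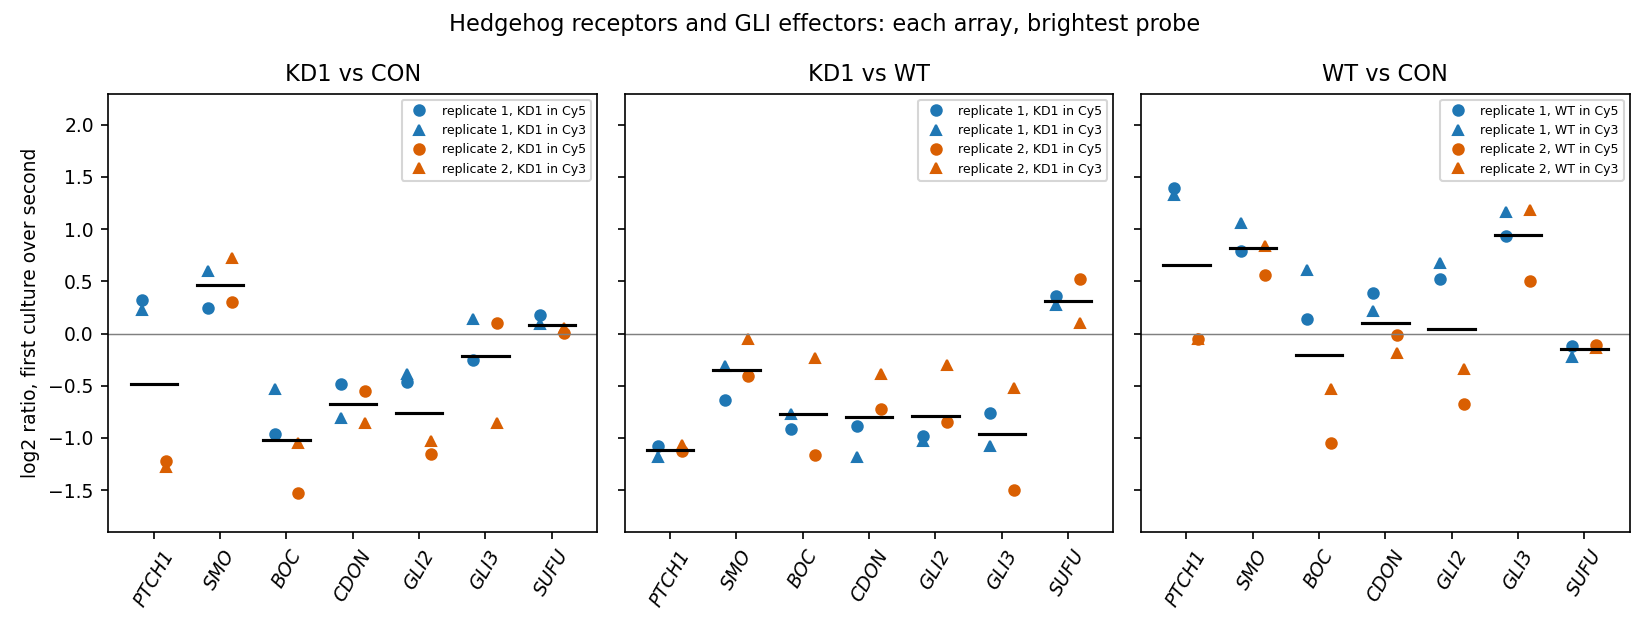
Log2 ratio of each member's brightest probe on each array, in 3 panels for KD1 vs CON, KD1 vs WT and WT vs CON. Circles and triangles are the dye orientations, blue and orange the replicates, and black bars the mean of the 2 replicate values. BOC, CDON and GLI2 are below 0 on all 8 KD1 arrays, whereas PTCH1 in KD1 vs CON and 4 members in WT vs CON have replicates on opposite sides of 0.

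Among the receptors, PTCH1 was at 0.27 in replicate 1 and at -1.25 in replicate 2 of KD1 vs CON, which gives -0.49 ± 1.08 (SD, n = 2). The replicates therefore lay on opposite sides of 0, and the 95% interval of the limma fit ran from -1.34 to 0.36 (adjusted p = 0.561). In KD1 vs WT the values were -1.13 and -1.10, a mean of -1.11 ± 0.02, and all 4 arrays lay between -1.18 and -1.07. This difference of 2.16-fold had a 95% interval of -1.99 to -0.24 and an adjusted p of 0.200, since the spread is shared with the other comparisons of the fit. In WT vs CON the values were 1.36 and -0.05 (adjusted p = 0.427). The dimmer PTCH1 probe went the same way in each replicate, with 0.26 and -1.21, then -0.63 and -0.50, then 0.69 and -0.59, but its 4 arrays of KD1 vs WT were spread from -1.41 to 0.42.

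The levels of the extracts show where these ratios came from. On the log2 signal scale the brightest PTCH1 probe was at 9.59 and 8.91 in KD1, 9.31 and 10.16 in CON, and 10.66 and 10.09 in WT. Both WT extracts were thus above both KD1 extracts, and the CON extracts lay on either side of KD1 replicate 1. In the order of the means, KD1 and CON overlapped, and so did CON and WT.

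BOC, a coreceptor with immunoglobulin and fibronectin repeats, was at -0.74 and -1.29 in KD1 vs CON, a mean of -1.02 ± 0.39 or 2.02-fold lower, with a 95% interval of -1.65 to -0.38 and an adjusted p of 0.120. In KD1 vs WT it was at -0.84 and -0.70, a mean of -0.77 ± 0.10 or 1.71-fold lower (adjusted p = 0.223). All 8 KD1 arrays were below 0, from -1.53 to -0.23. In WT vs CON it was at 0.38 and -0.79 (adjusted p = 0.770). Its levels were 7.87 and 7.77 in KD1, 8.49 and 9.11 in CON, and 8.81 and 8.35 in WT, so the KD1 extracts were below all others and CON and WT overlapped.

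CDON, a coreceptor of the same family that also promotes muscle differentiation, was at -0.65 and -0.70 in KD1 vs CON, a mean of -0.67 ± 0.04 or 1.60-fold lower, with a 95% interval of -1.16 to -0.19 and an adjusted p of 0.168. In KD1 vs WT it was at -1.04 and -0.56, a mean of -0.80 ± 0.34 or 1.74-fold lower (adjusted p = 0.137). The levels were 10.09 and 10.04 in KD1, 10.74 and 10.67 in CON, and 11.09 and 10.60 in WT, so that both KD1 extracts were below the other 4, while WT replicate 2 was just under CON. The dimmer probe, further 5′ in the transcript, was also below 0 on all 8 KD1 arrays, at -0.76 and -0.37 and then -0.49 and -0.22. Of the KD1 comparisons its signal allowed a test only in KD1 vs WT, where the adjusted p was 0.437.

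SMO, the signal-passing membrane protein, had another pattern. It was at 0.42 and 0.51 in KD1 vs CON, a mean of 0.47 ± 0.07 or 1.38-fold higher (95% interval 0.02 to 0.92, adjusted p = 0.273), and at -0.47 and -0.23 in KD1 vs WT, a mean of -0.35 ± 0.17 or 1.28-fold lower (adjusted p = 0.415). In WT vs CON it was at 0.93 and 0.70, a mean of 0.82 ± 0.16 or 1.76-fold higher (95% interval 0.34 to 1.29, adjusted p = 0.111). It was the 1 member of 6 tested that was above 0 on all 4 WT vs CON arrays, which was so for 20.1% of 26595 probes. The levels were 12.83 and 12.82 in CON, 13.25 and 13.32 in KD1, and 13.73 and 13.54 in WT, without overlap between cultures in these means. In size, the difference between the 2 cultures without the knockdown was above that of KD1 from either of them, and whether these sizes differ was not tested.

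Of the effectors, GLI2 was at -0.43 and -1.09 in KD1 vs CON, a mean of -0.76 ± 0.47 or 1.69-fold lower (95% interval -1.41 to -0.11, adjusted p = 0.223). In KD1 vs WT it was at -1.01 and -0.57, a mean of -0.79 ± 0.31 or 1.73-fold lower (adjusted p = 0.224), and in WT vs CON at 0.60 and -0.51 (adjusted p = 0.960). The other GLI2 probe gave -0.36 and -1.12, then -0.96 and -0.69, then 0.72 and -0.70, so both probes put KD1 lowest in each replicate. By extract, the brightest probe was at 8.94 and 9.42 in KD1, 9.37 and 10.58 in CON, and 9.97 and 9.99 in WT. KD1 replicate 2 and CON replicate 1 were thus alike, and KD1 was below both other cultures within each replicate.

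BOC, CDON and GLI2 were thus 3 of the 6 members tested in both KD1 comparisons that were below 0 on all 8 KD1 arrays. Of 21882 probes tested in both, 8.36% were below 0 on all 8. Both comparisons used the same KD1 extracts, so the 8 arrays rest on 2 KD1 extracts.

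SUFU, the GLI inhibitor, differed by at most 1.24-fold in its brightest probe, which spans the splice junction. The values were 0.14 and 0.03 in KD1 vs CON, then 0.32 and 0.31 for KD1 vs WT, and -0.17 and -0.12 in WT vs CON, with adjusted p of 0.884, 0.453 and 0.774. The 95% intervals ran from -0.35 to 0.52, from -0.14 to 0.76 and from -0.61 to 0.32. Each included 0, and differences within those bounds were compatible with the data. The probe furthest 3′ gave -0.01 ± 0.10, 0.05 ± 0.03 and -0.18 ± 0.01 for the 3 comparisons. The remaining probe gave -0.28 ± 0.01, -0.01 ± 0.39 and -0.11 ± 0.32, so the probes differed in sign in KD1 vs CON and none passed the test. The levels of the brightest probe were 9.78 and 9.56 in KD1, 9.66 and 9.50 in CON, and 9.44 and 9.24 in WT, with overlap between KD1 and CON, and with both WT extracts below all others.

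GLI3, mostly a repressor when the pathway is off, was not well above background in any of 24 readings. Its levels were 2.09 and 1.74 in KD1, 2.16 and 2.05 in CON, and 2.97 and 2.77 in WT. It was in no test, and no fold is given for it. The other 11 member probes were well above background in all 24 readings.

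**Figure D2:**
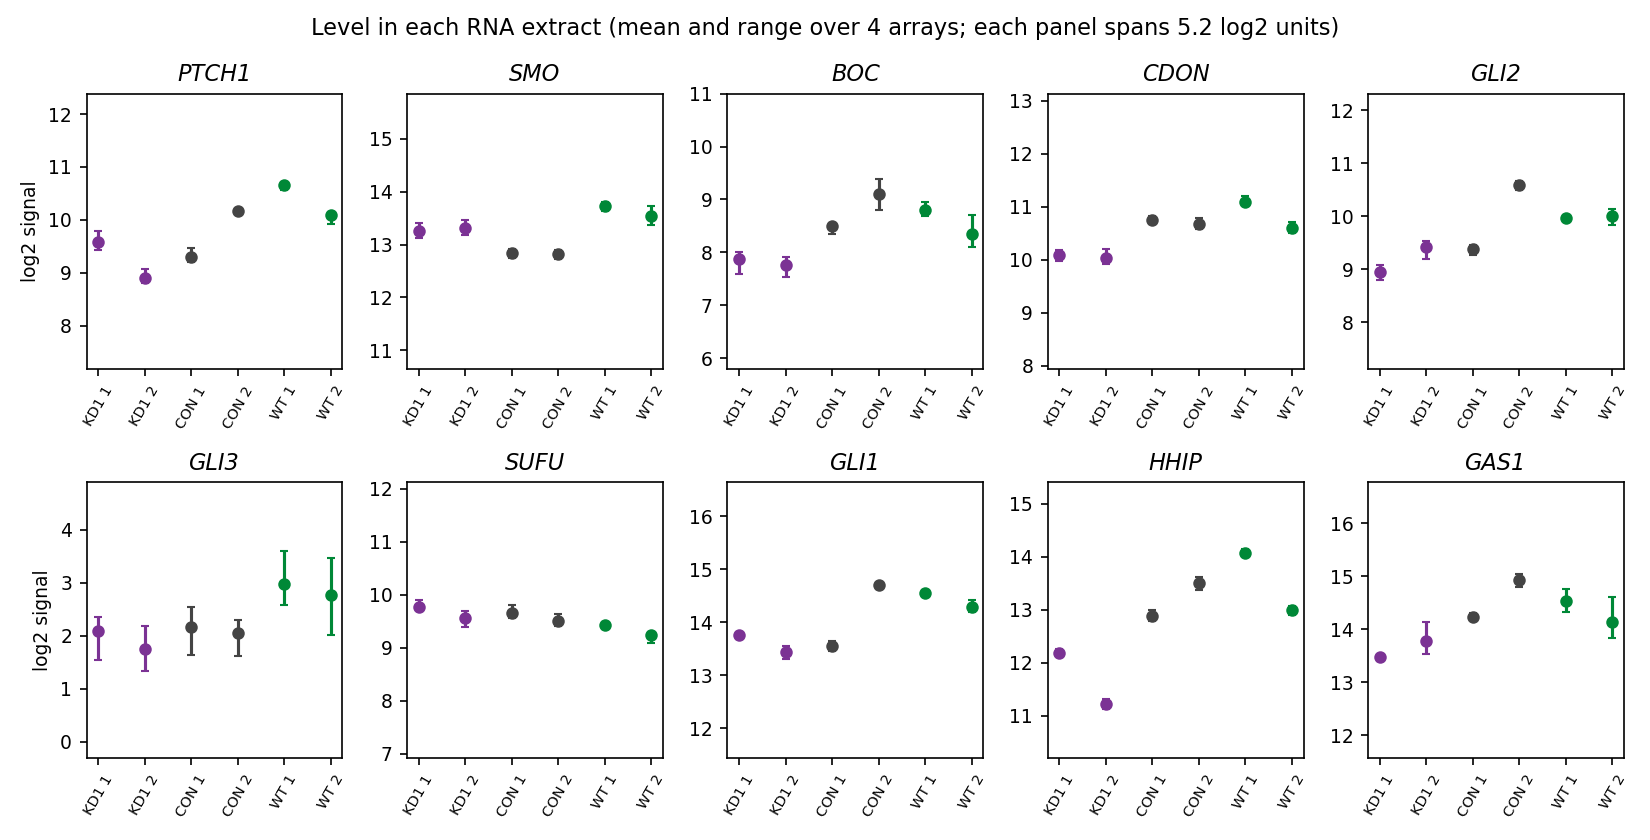
Log2 normalised signal of the brightest probe in each of the 6 RNA extracts, for the 7 members and for GLI1, HHIP and GAS1; points are means and bars the range over 4 arrays. Levels are comparable within a panel and not between panels. By the means, BOC, CDON, HHIP and GAS1 are lowest in both KD1 extracts, and SMO falls into 3 separate steps. For SMO, the bars of both KD1 extracts overlap that of WT replicate 2. PTCH1, GLI2, GLI1 and HHIP vary between extracts of the same culture.

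The target genes and the remaining receptors were read beside the members. GLI1, the transcriptional amplifier of the pathway, was at 0.17 and -1.34 in KD1 vs CON, then -0.81 and -0.83 for KD1 vs WT, and 0.97 and -0.48 in WT vs CON (adjusted p from limma 0.477, 0.321 and 0.799). In KD1 vs CON its replicates parted as those of PTCH1 did, and its level was 13.56 in CON replicate 1 and 14.70 in CON replicate 2. HHIP, which binds and holds back the ligand, was at -0.71 and -2.27 in KD1 vs CON, a mean of 2.81-fold lower (adjusted p = 0.116), and at -1.89 and -1.74 in KD1 vs WT, a mean of 3.51-fold lower (adjusted p = 0.0934). Both HHIP probes were below 0 on all 8 KD1 arrays. GAS1, the third ligand-binding partner, was at -0.77 and -1.32 in KD1 vs CON, 2.06-fold lower (adjusted p = 0.120), and at -1.01 and -0.43 in KD1 vs WT, 1.65-fold lower (adjusted p = 0.255).

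**Figure D3:**
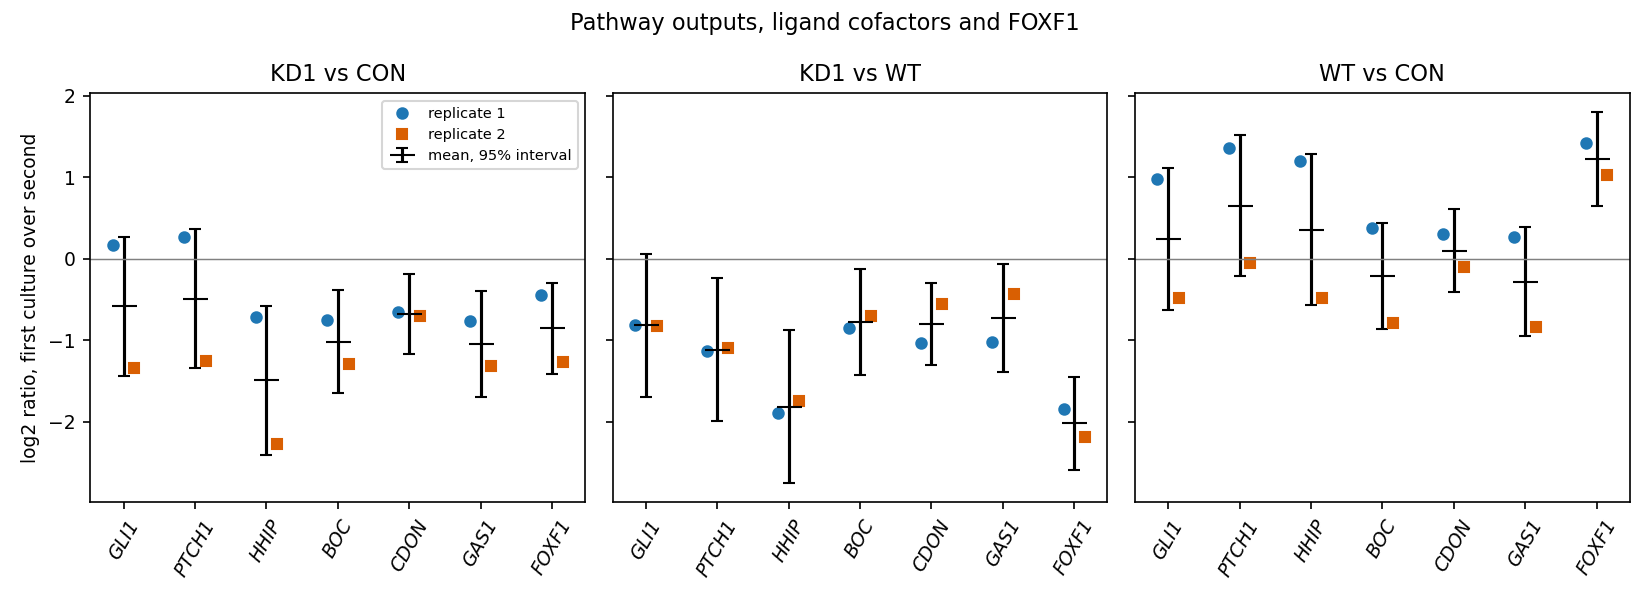
Log2 ratios of target genes and ligand-binding partners in the 3 comparisons, with circles for replicate 1, squares for replicate 2, and the mean with its 95% interval from limma. HHIP, BOC, CDON, GAS1 and FOXF1 are below 0 in both replicates of both KD1 comparisons, and GLI1 and PTCH1 only in those of KD1 vs WT.

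Of the genes in the Hedgehog lists, each read by its brightest probe, 1 was called. FOXF1, a forkhead factor induced by Hedgehog signals in mesenchyme, fell in KD1 vs WT, at -1.84 and -2.18, a mean of -2.01 ± 0.24 or 4.04-fold (adjusted p = 0.0156). In KD1 vs CON it was at -0.44 and -1.26 (adjusted p = 0.134) and in WT vs CON at 1.42 and 1.03 (adjusted p = 0.0658). Its levels were 7.02 and 7.30 in KD1, 7.45 and 8.37 in CON, and 8.92 and 9.40 in WT. The call was lost in 3 settings: without WT replicate 2, at -1.84 with an adjusted p of 0.123, under normexp background correction with loess, at -1.32 with an adjusted p of 0.0910, and with separate channels and no replicate block, at an adjusted p of 0.0805.

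The target list had 16 genes tested in each comparison, with 0 called in KD1 vs CON, 1 called lower in KD1 vs WT and 0 called in WT vs CON. Its median log2 ratio was -0.57, -0.65 and 0.16, and that of all genes tested was -0.015, 0.0049 and -0.030. In the mean of both replicates, 13 of the 16 were below 0 in KD1 against each of CON and WT, where 52.1% and 49.4% of all genes were. In replicate 1 alone the target median was -0.15 for KD1 vs CON, -0.81 for KD1 vs WT and 0.70 for WT vs CON. Those of all genes were -0.0068, 0.046 and -0.062. In that replicate 9 of the 16 targets were below 0 in KD1 vs CON, where 51.0% of all genes were. In KD1 vs WT it was 11 of the 16, where 46.3% of all genes were. Among the targets CCND1, the G1 cyclin, was at -1.30 and -1.28 in KD1 vs CON but at 0.01 and -1.28 in KD1 vs WT. SFRP1, a secreted Wnt inhibitor, was at -0.96 and -0.94 and then at -1.75 and -0.45.

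The membrane receptor list, which holds 4 of the members, had 9 of 10 genes tested and 0 called in each comparison. Its medians were -0.67, -0.77 and 0.12, and 8, 9 and 3 of the 9 genes were below 0, where 52.1%, 49.4% and 53.5% of all genes were. In replicate 1 alone, 5 of 9 were below 0 in KD1 vs CON, with a median of -0.18. For KD1 vs WT it was 9 of 9, with a median of -1.01. For WT vs CON it was 1 of 9, with a median of 0.38. Of all genes, 51.0%, 46.3% and 55.2% were below 0 in that replicate. The list of effectors and their control had 15 of 16 tested and 0 called, with medians of 0.048, 0.13 and -0.10. Its genes below 0 numbered 5, 4 and 9 of the 15, where 52.1%, 49.4% and 53.5% of all genes were. Of ligands and release, 4 of 7 genes were tested and 0 called, with medians of 0.20, 0.08 and 0.18. Of the 4 tested, the numbers below 0 were 2, 2 and 1. SHH, the best known ligand, was well above background in 4, 5 and 3 of 8 readings of KD1, CON and WT, at levels of 4.15 to 4.36, and DHH differed by at most 1.18-fold. Cilium transport had 9, 9 and 10 of 10 genes tested, 0 called, and medians of 0.19, -0.25 and 0.28. Its genes below 0 numbered 4 of 9, 7 of 9 and 1 of 10.

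Some genes in these lists could be given only as bounds. KIF7, a kinesin of the cilium, was not well above background in any of 8 KD1 readings. It was well above background in 7 of 8 readings of CON and 8 of 8 of WT. Its level in KD1 was lower by at least 3.96-fold against WT and by at least 2.12-fold against CON. Its 50 flanking genes on chromosome 15 had medians of -0.33 and -0.20 against CON and WT. The bound sets the brighter culture's mean against the lowest signal that counted as well above background on each array. SCUBE2, which helps release the ligand, was well above background in 4 of 8 KD1 readings and in none of the other cultures. Its level was 6.17 in KD1 replicate 2 and 3.45 in KD1 replicate 1, so the bound of at least 1.85-fold over CON and 1.91-fold over WT rests on a single extract. Neither gene was tested in the KD1 comparisons. BCL2, which holds back apoptosis, and IGF2, a growth factor, each had a dimmer probe called in WT vs CON, with adjusted p of 0.00308 and 0.0420, while their brightest probes had 0.911 and 0.0595. The BCL2 probe was not well above background in any of 8 CON readings, and it was at least 3.82-fold higher in WT and at least 3.33-fold higher in KD1. The IGF2 probe was at -1.62 and -1.16 in WT vs CON.

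The position of each gene was set beside the expressed genes flanking it, 25 on either side where the chromosome allowed it. For CDON on chromosome 11, the median of 48 flanking genes was -0.36 for KD1 over CON and -0.24 for KD1 over WT, and 41 and 38 of them were below 0. CDON was 0.31 and 0.56 below those medians. The neighbours of HHIP on chromosome 4 had medians of -0.40 and -0.36, and those of GAS1 on chromosome 9 had -0.32 and -0.20. PTCH1, further along chromosome 9, had neighbours at -0.14 and -0.15. For BOC on chromosome 3 the medians were 0.03 and -0.04, for GLI2 on chromosome 2 they were -0.10 and -0.01, and for SMO on chromosome 7 they were 0.11 and 0.04. Relative to their neighbours, BOC was at -1.04 and -0.73 and GLI2 at -0.66 and -0.78. In replicate 1 alone the medians of KD1 over WT were -0.15 for CDON, -0.24 for HHIP and -0.16 for GAS1. The part of copy number in any of these values was not tested.

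**Figure D4:**
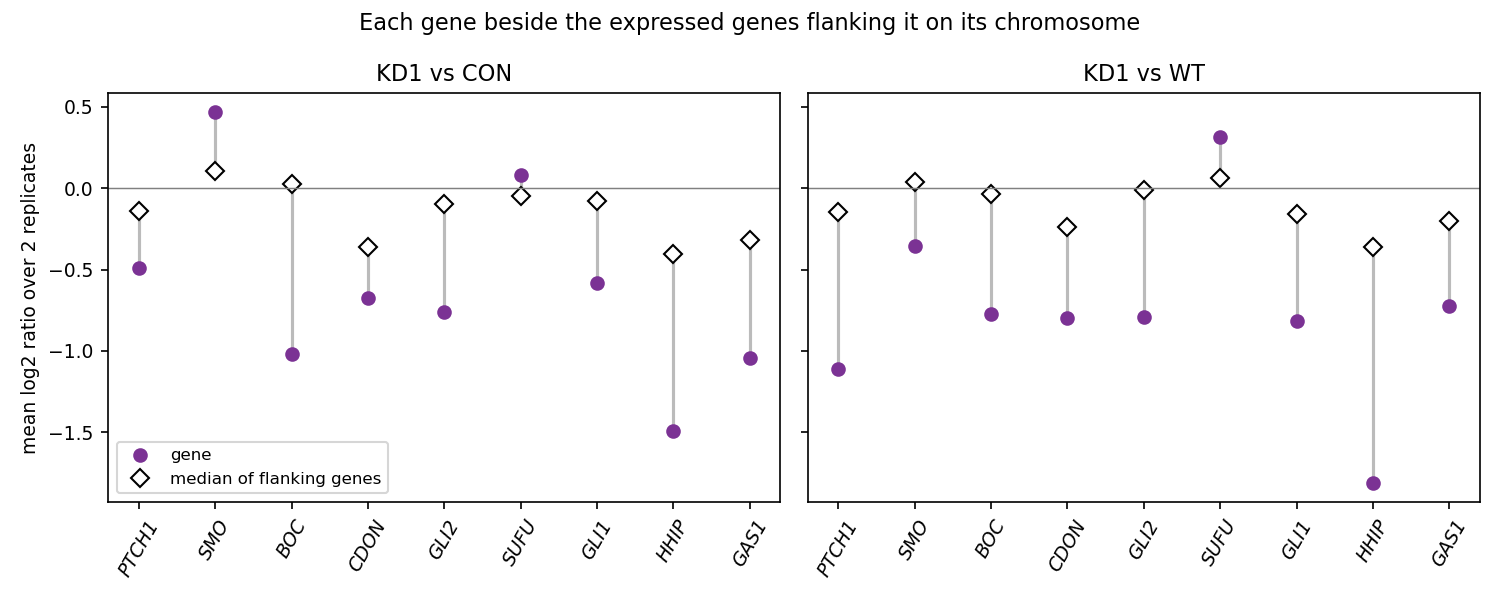
Mean log2 ratio of each gene (filled circles) and the median of the expressed genes flanking it on its chromosome (open diamonds), for KD1 vs CON and KD1 vs WT. For the 9 genes plotted, the flanking medians lie between -0.40 and 0.11, lowest around HHIP, CDON and GAS1 in KD1 vs CON. Around BOC, GLI2, SMO and SUFU they lie between -0.10 and 0.11 in both panels.

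PTCH1 had the largest mean ratio in size among the tested members, and the genes nearest to it over the 6 replicate values were SLC16A3, VCAN and C14orf139, at Euclidean distances of 0.51, 0.51 and 0.55 among 15705 candidate genes. VCAN, which encodes the matrix proteoglycan versican, was at -0.0051 and -1.24 in KD1 vs CON, then -1.15 and -1.40 for KD1 vs WT, and 1.13 and 0.14 in WT vs CON. SLC16A3, a lactate exporter, was at 0.37 and -0.88, then -0.88 and -1.12, then 1.27 and 0.16. GLI1 ranked 11 in this order at a distance of 0.73, and HHIP ranked 1104 at 1.79. The 6 values share extracts and are a description only.

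The promoter windows of the members were searched for the GLI consensus GACCACCCA and its reverse complement TGGGTGGTC. RefSeq windows of 300 bases on assembly GRCh38.p14 were at hand for 6 of the 7 members, 14 windows in all. The motif was in 1 of the 14, at a PTCH1 start, and in 83 of all 35116 windows, or 0.236%. It begins 172 bases before that start and lies on the strand opposite to the gene. The stretch around it, on the minus strand with the motif in capitals, reads as follows, and it is shown because PTCH1 is both a receptor and a target of the pathway.
PTCH1, chr9:95509370-95509498, minus strand: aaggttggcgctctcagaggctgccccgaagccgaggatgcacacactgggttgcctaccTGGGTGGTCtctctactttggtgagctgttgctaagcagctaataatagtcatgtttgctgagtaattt
The match is a description of the letters, and binding was not measured here.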

How the data were processed

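The arrays hold 45015 features. The authors extracted them with Agilent Feature Extraction 10.5.1.1 and deposited lowess-normalized intensity values per spot, a log10 ratio of red over green, and a series table of these ratios on the log2 scale, equal to them within 5e-06. Log2 ratios of the deposited processed intensities were turned to the first culture and averaged over unflagged spots and dye swaps. Spots well above background made up 71.1% to 73.6% in Cy3 and 64.4% to 67.8% in Cy5, and none was saturated. The 12 arrays read 6 extracts, and having 2 extracts a culture limits the precision.

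A probe was tested where, on each array of the comparison, either channel exceeded the 99th percentile of 153 negative controls. limma 3.58.1 (R 4.3.3) was run on 6 replicate values with 2 residual degrees of freedom, as comparisons share extracts, and the Benjamini-Hochberg threshold was 0.05. Tested on simulated data (KD1 vs CON, 21937 probes, 20 simulations), it recovered 52% of 200 probes changed by 2 on the log2 scale, with 1.55 false calls. The tested members' mean log2 ratios were at most 1.11 in size, and changes of that size were not simulated. Levels per extract came from separate channels after loess and Aquantile.

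Named genes were the members, GLI1, HHIP, GAS1, PAX3, FOXO1, called genes of the Hedgehog lists, and the 3 genes nearest to the member with the largest ratio; the other genes were named after their values were seen. A further gene of that rule is not reported here. The members and lists were chosen with earlier results of these data known. Alternatives covered background correction, centring, the series table, pairing, filters, dye, slide, replicates and the choice of probe; the setting without WT replicate 2 was added after seeing the data.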

Additional observations from a re-analysis of the deposited data

How the results depend on the processing

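Leaving out replicate 1 or replicate 2 whole leaves 1 value a comparison and no test, and 9 of 66 such values changed sign: without replicate 2, PTCH1 to 0.27 and GLI1 to 0.17 in KD1 vs CON, and without replicate 1, PTCH1 to -0.054, GLI2 to -0.51, CDON to -0.10, GLI1 to -0.48 and HHIP to -0.48 for WT vs CON. Without 1 replicate or the other, BOC in that comparison ranged from -0.79 to 0.38 and GAS1 from -0.83 to 0.27. No member was called in any comparison under normexp with loess, median centring, the series table, either filter, Cy3 alone, the mean over a gene's probes, the fits on extracts or without WT replicate 2; the exceptions were the fit to 12 arrays, which takes dye-swap arrays as replicates (3, 3 and 1 members called in KD1 vs CON, KD1 vs WT and WT vs CON), and the arrays with the first culture in Cy5 alone (1, BOC in KD1 vs CON). The 3 comparisons called 393, 261 and 365 probes. Those counts became 26, 1 and 2 under normexp with loess, 250, 117 and 157 under median centring, 3944, 4204 and 4265 with 12 arrays and a slide dye effect, 1028, 1337 and 940 in Cy5 alone and 1191, 1457 and 1100 in Cy3 alone. Each array pairs extracts of the same replicate number; the paired fit of extract values with a replicate block called 161, 107 and 131 probes, and separate channels without the block 202, 126 and 114. Without a filter KD1 vs CON had 254 and WT vs CON 200, and without WT replicate 2, with 1 residual degree of freedom, KD1 vs WT had 36 and WT vs CON 5. The cause of these changes was not tested, and the last setting differs in its extracts and in its degrees of freedom at once.

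Of 396 values for members, GLI1, HHIP, GAS1 and FOXF1 under the other alternatives, 7 changed sign, and none of these results was larger than 0.28 in size. The mean over probes gave -0.071 for SUFU in KD1 vs CON and -0.088 for CDON in WT vs CON, and normexp with loess gave 0.052 for GLI3, near background, in KD1 vs CON. For WT against CON, GLI2 was at -0.079 in Cy5 alone, BOC at 0.040 in Cy3 alone, and BOC was at 0.38 and GAS1 at 0.27 without WT replicate 2.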
